A study of Mus musculus with 6 samples.

Results

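The urea cycle and the linked routes to citrulline and arginine were described through 9 genes, Cps1, Otc, Ass1, Asl, Arg1, Arg2, Nags, Oat and Aldh18a1. Every probe set whose symbol in the platform annotation was one of these was taken, which gave 16 of the 45037 probe sets and 9 of the 18161 genes measured. Levels came from Affymetrix Mouse Genome 430 2.0 arrays, on which short probes near the 3' end of a transcript report its abundance. The small intestine of C57BL/6 embryos at E18.5 (days of gestation) was separated without enzymes into epithelium and mesenchyme after 9 hours in a cold recovery solution. For every array, tissue of 3 embryos was combined, and epithelium and mesenchyme had 3 arrays each (A, B, C), with no difference in genotype or treatment given between them. The mesenchyme fraction is all tissue left after the epithelium came off, so it holds muscle, vessels, nerves and blood cells. The submitters chose these pools from 6 per tissue by RT-PCR for purity, and it is not stated whether pools of the same letter shared embryos.

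The urea cycle turns ammonia into urea in the liver, where it is complete. In the gut of newborn mammals a part of the same pathway serves another end: enterocytes make citrulline, and before weaning also arginine, from glutamine, glutamate and proline. Aldh18a1 reduces glutamate to the semialdehyde that Oat turns into ornithine. In the mitochondrion Cps1 makes carbamoyl phosphate when bound by N-acetylglutamate, the product of Nags, and Otc joins it to ornithine to give citrulline. In the cytosol Ass1 and Asl convert citrulline to arginine, and the arginases Arg1 and Arg2 split arginine into ornithine and urea.

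All steps from glutamate to arginine were higher in the epithelium, whereas the arginases were not. Of the 9 genes, 7 were higher in the epithelium (Aldh18a1, Oat, Nags, Cps1, Otc, Ass1, Asl), none was higher in the mesenchyme, and Arg1 and Arg2 did not pass. Called means a difference of 2-fold or more whose Benjamini-Hochberg adjusted p in limma, taken over 18161 genes with the brightest probe set of each, is under 0.05. This rule called 24.1% of all genes, 8.19% in favour of the epithelium and 15.9% in favour of the mesenchyme. At an unadjusted p under 0.05 the counts of these 9 genes were again 7 and 0 in limma. Their median log2 difference (epithelium minus mesenchyme) was 2.33, against -0.17 over all genes. Among the 16 probe sets 13 were called higher in the epithelium (5.98% of all probe sets were), and the same number had no overlap between the tissues (among all probe sets, 12.4% were apart with the epithelium higher and 29.3% with the mesenchyme higher).

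The labelled tissues carried their own markers. Of 8 defining epithelial genes all 8 were higher in the epithelium, and of 8 mesenchymal genes all 8 were higher in the mesenchyme. Array medians ran from 8.1 to 8.7 on the log2 scale, and the correlation was 0.978 to 0.984 within a tissue and 0.773 to 0.813 across tissues. Mesenchyme B had the lowest mean of the hybridization spike-ins, 9.80, where the other 5 arrays had 10.56 to 10.77. Of all called genes 34.0% were higher in the epithelium, and this share was 44.6% to 51.2% under quantile, loess, median and ribosomal scaling and 22.5% under spike-in scaling. These scalings moved the median difference of all genes by 0.21 to 0.32, and by -0.26 for the spike-in controls. The bacterial control transcripts that were not in the tissue averaged 5.91 to 6.24 per array, with single probe sets from 5.0 to 8.3, and the deposited values had no detection calls. With 3 arrays per tissue, precision is limited by their number.

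**Figure D1:**
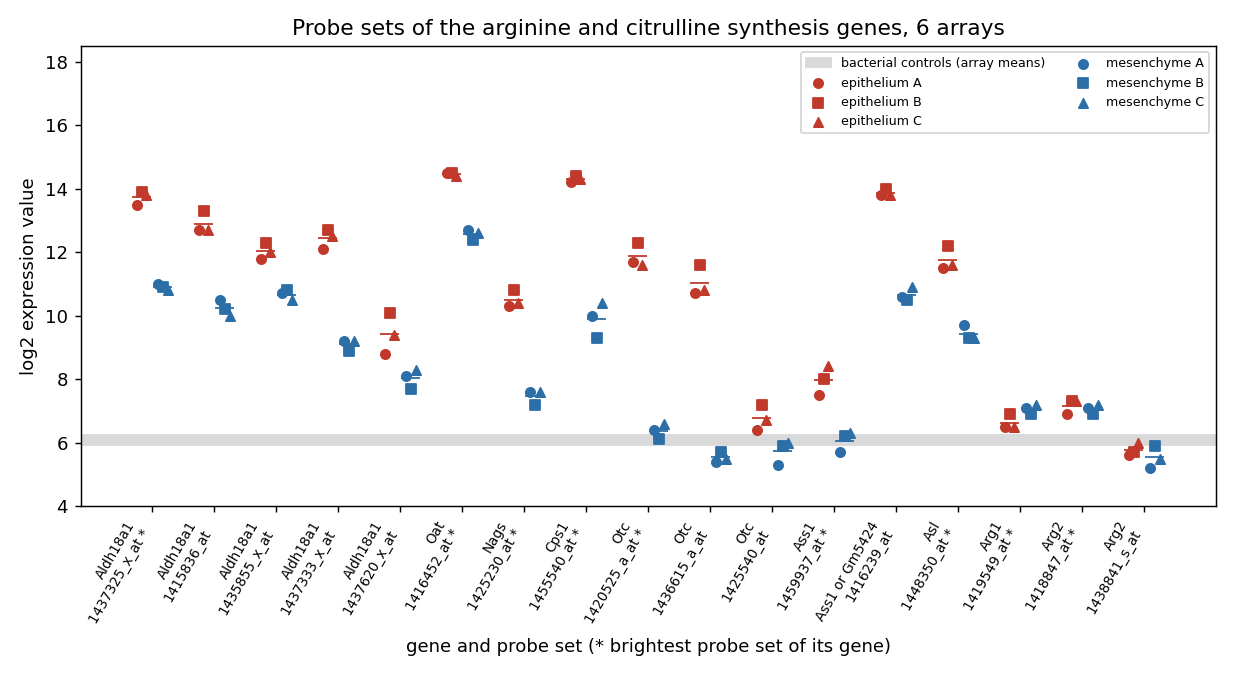
Deposited log2 expression values (y axis) of the 16 probe sets and of 1 probe set shared by Ass1 and the pseudogene Gm5424 (x axis), with 3 epithelial arrays in red, 3 mesenchymal arrays in blue, group means as bars and the range of the bacterial control means in grey. Red and blue points are apart for every probe set except those of Arg1 and Arg2, which lie between 5.2 and 7.3.

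Of the genes in the RefSeq promoter table (build GRCm38.p6), 5 of the 9 had an entry: Otc, Ass1, Nags, Oat and Aldh18a1. The sequences upstream of the start of Otc, Ass1 and Nags are given because these cycle genes were all higher in the epithelium and yet differ in base composition. They are written 5' to 3' on the strand of the gene, at chrX:10252055-10252229 (plus strand, ending before the most upstream annotated start), chr2:31470020-31470269 (plus strand) and chr11:102145263-102145512 (plus strand). Capitals mark the matches named after the sequences.
Otc: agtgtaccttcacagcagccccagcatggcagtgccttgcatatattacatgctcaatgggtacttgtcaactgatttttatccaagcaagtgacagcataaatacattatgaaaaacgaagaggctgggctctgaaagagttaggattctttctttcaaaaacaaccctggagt
Ass1: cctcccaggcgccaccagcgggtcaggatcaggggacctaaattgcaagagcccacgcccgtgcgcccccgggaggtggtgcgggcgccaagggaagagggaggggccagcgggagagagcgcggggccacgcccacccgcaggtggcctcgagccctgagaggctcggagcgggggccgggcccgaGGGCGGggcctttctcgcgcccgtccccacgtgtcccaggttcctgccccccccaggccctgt
Nags: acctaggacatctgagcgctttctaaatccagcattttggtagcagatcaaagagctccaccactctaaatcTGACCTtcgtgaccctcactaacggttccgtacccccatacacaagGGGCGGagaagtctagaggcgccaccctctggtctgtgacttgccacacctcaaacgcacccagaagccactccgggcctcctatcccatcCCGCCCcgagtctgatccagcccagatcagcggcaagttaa
Composition and motifs were read over all 250 upstream bases of each gene, of which the first 175 are printed for Otc. Of these 250 bases, 43.6% were G or C for Otc, 75.6% for Ass1 and 55.6% for Nags, against a median of 52.4% over 32851 promoters. Oat and Aldh18a1 had 60% and 57.2%. On both strands, TATAAA (the TATA box, in 12.4% of all promoters), CCAAT (33.8%), GGGCGG (the GC box, 32.7%), TTGCNNAA (bound by C/EBP factors, 9.56%), CAAAGTCCA (bound by HNF4, 0.384%) and AGGTCA (a core shared by nuclear receptor sites, 14%) were searched in these 250 bases. Ass1 held 1 GC box at 63 bases before the start. Nags held GC boxes at 132 and 41 bases and AGGTCA, on the opposite strand, at 178 bases. Oat held CCAAT at 47 and 22 bases, Aldh18a1 a GC box at 108 bases, and Otc held no match to any of these letters. No motif was shared by all 5 genes.

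The steps that lead to ornithine were both higher in the epithelium. Aldh18a1, whose enzyme takes glutamate to the semialdehyde from which proline and ornithine are made, read 13.5, 13.9 and 13.8 in epithelium A, B and C and 11.0, 10.9 and 10.8 in mesenchyme A, B and C (probe set 1437325_x_at). Every epithelial array lay above every mesenchymal one. The difference was 2.83 ± 0.23 (log2, SE from limma, 3 arrays per tissue), which is 7.13-fold (95% interval 5.18 to 9.81), with an adjusted p of 3.31e-13 in limma. Its other 4 probe sets were also called higher in the epithelium, by 3.33, 2.67, 1.40 and 1.37, so that the size of the difference varied with the probe set although its direction did not. Of these 5 probe sets only 1415836_at (2.67 ± 0.24) carries no suffix for probes that may read other transcripts.

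Oat, the ornithine aminotransferase, had the least spread of the 9 genes in the epithelium. It read 14.5, 14.5 and 14.4 in the epithelium against 12.7, 12.4 and 12.6 in the mesenchyme, near the top of the arrays' range (up to 15.2) in the first and at a high value in the second. The tissues did not overlap. The difference was 1.90 ± 0.23, or 3.73-fold (95% interval 2.72 to 5.12, adjusted p = 5.20e-09 in limma). Oat thus gave a strong signal on the mesenchymal arrays as well. Whether epithelial values so near the top of the range compressed the difference was not tested.

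The mitochondrial steps from ammonia to citrulline showed the widest differences. Cps1, which makes carbamoyl phosphate, read 14.2, 14.4 and 14.3 in the epithelium against 10.0, 9.3 and 10.4 in the mesenchyme. The epithelial arrays were nearly level (SD of 0.10), and the mesenchymal arrays were spread more (SD of 0.56), with mesenchyme B lowest. The difference was 4.40 ± 0.25, or 21.1-fold (95% interval 14.9 to 29.9, adjusted p = 2.00e-17 in limma), and it ranked 78 of 18161 genes in favour of the epithelium.

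Otc, the carbamoyltransferase that forms citrulline, had the largest difference of the 9 genes. By its brightest probe set, 1420525_a_at, it read 11.7, 12.3 and 11.6 in the epithelium against 6.4, 6.1 and 6.6 in the mesenchyme, where it was close to the bacterial controls. The tissues were far apart, and the difference was 5.50 ± 0.24 (adjusted p = 1.66e-20 in limma). With mesenchymal values at the level of these controls, its 45.3-fold is a lower limit. Another probe set, 1436615_a_at, gave the same difference (5.50 ± 0.24) from 10.7, 11.6 and 10.8 in the epithelium against 5.4, 5.7 and 5.5 in the mesenchyme. The third, 1425540_at, was dim in both tissues, at 6.4, 7.2 and 6.7 against 5.3, 5.9 and 6.0. It lay just past the 2-fold threshold (1.03 ± 0.25, adjusted p over probe sets 8.59e-04 in limma), and the mean of the 3 probe sets gave 4.01.

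Nags, which supplies the activator of Cps1, followed at a lower level. It read 10.3, 10.8 and 10.4 in the epithelium against 7.6, 7.2 and 7.6 in the mesenchyme. The tissues did not overlap, and the difference was 3.03 ± 0.23, or 8.19-fold (95% interval 5.90 to 11.4, adjusted p = 1.05e-13 in limma). Its mesenchymal values were above the array means of the bacterial controls but within the range of single control probe sets (up to 8.3). The fold may thus be a lower limit.

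The cytosolic steps from citrulline to arginine were also higher in the epithelium. Asl, the lyase that releases arginine, read 11.5, 12.2 and 11.6 in the epithelium against 9.7, 9.3 and 9.3 in the mesenchyme. All epithelial arrays were higher, with a difference of 2.33 ± 0.24, or 5.04-fold (95% interval 3.60 to 7.05, adjusted p = 1.71e-10 in limma).

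Ass1, the synthetase that joins citrulline to aspartate, was read by a dim probe set and by a bright one of shared identity. The probe set annotated to Ass1 alone, 1459937_at, read 7.5, 8.0 and 8.4 in the epithelium against 5.7, 6.2 and 6.3 in the mesenchyme, the latter at the level of the bacterial controls. The tissues did not overlap, and the difference was 1.90 ± 0.25 (adjusted p = 4.10e-08 in limma), whose 3.73-fold is likewise a lower limit. The annotation pairs 1416239_at with both Ass1 and its transcribed pseudogene Gm5424, so this probe set lies outside the rule and was added after its values were seen. It read 13.8, 14.0 and 13.8 in the epithelium against 10.6, 10.5 and 10.9 in the mesenchyme, a difference of 3.20 ± 0.23 (9.19-fold, adjusted p over probe sets 1.61e-14 in limma). Signals of the gene and the pseudogene cannot be told apart here.

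The arginases, which close the cycle, gave low values in both tissues. Arg1, the cytosolic arginase of liver and of some macrophages, read 6.5, 6.9 and 6.5 in the epithelium against 7.1, 6.9 and 7.2 in the mesenchyme. The ranges met at 6.9, and the difference was -0.43 ± 0.23 (95% interval -0.90 to 0.03, adjusted p = 0.134 in limma). Arg2, the mitochondrial arginase of many other tissues, read 6.9, 7.3 and 7.3 in the epithelium against 7.1, 6.9 and 7.2 in the mesenchyme by its brighter probe set. These arrays overlapped, with a difference of 0.10 ± 0.23 (95% interval -0.36 to 0.56, adjusted p = 0.773 in limma), and its other probe set (1438841_s_at, 5.2 to 6.0 over the 6 arrays) differed by 0.23 ± 0.24. In the deposited values with all 6 arrays, the intervals leave out a 2-fold difference in either direction for both genes. For Arg1 this rests on that setting: it differed by -0.69 ± 0.36 under spike-in scaling and by -0.52 ± 0.27 without mesenchyme B. At values so near those of the bacterial controls a true difference may also be compressed. The adjusted p of Arg1 fell to 0.027 without epithelium B (difference -0.57), and that of Arg2 to 0.0237 after quantile normalization (difference 0.43), both under 2-fold.

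**Figure D2:**
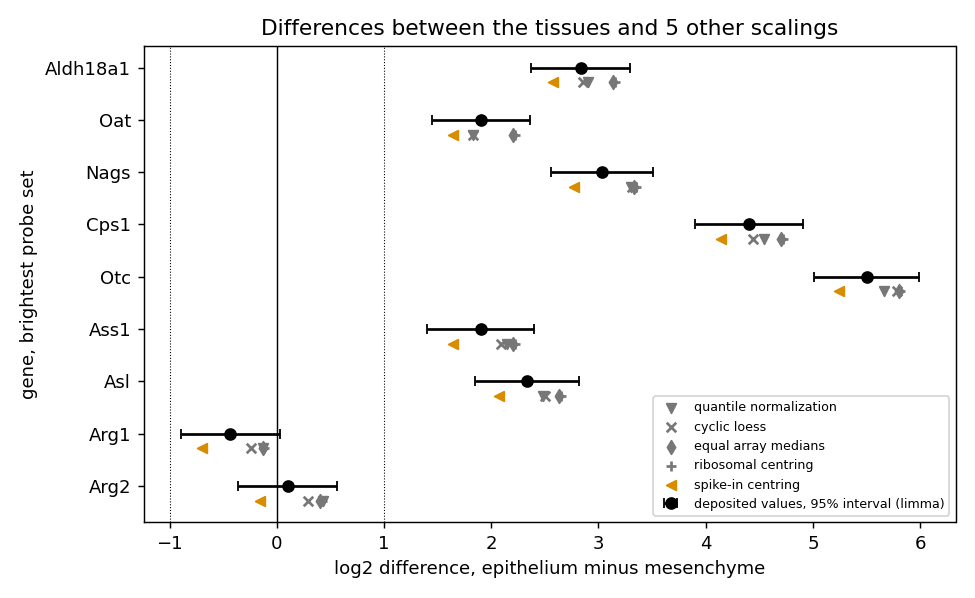
Log2 difference between epithelium and mesenchyme (x axis) for the brightest probe set of each of the 9 genes (y axis), with the limma estimate and its 95% interval in black and the estimates under 5 other scalings below it, with 2-fold marked by dotted lines. Otc (5.50) and Cps1 (4.40) lie farthest to the right, all 7 called genes stay past 2-fold under each scaling, and only Arg2 crosses 0 (-0.16 under spike-in scaling).

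The call of each of the 7 genes was kept under all 5 scalings and with any 1 array left out. Over the scalings the difference ran from 5.24 to 5.82 for Otc, from 4.14 to 4.72 for Cps1, from 2.77 to 3.35 for Nags, from 2.57 to 3.15 for Aldh18a1, from 2.07 to 2.65 for Asl, and from 1.64 to 2.22 for both Oat and Ass1. At least a 4-fold difference was called for 5 of the 9 genes (Otc, Cps1, Nags, Aldh18a1, Asl), where 3.44% of all genes were called so in the epithelium. In tissue RNA, fewer cells of a type and less RNA per cell cannot be told apart.

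The signal of the 7 genes on the mesenchymal arrays was set beside that of epithelial markers, because the labels report tissue separation by hand. On the linear scale, Otc in mesenchyme A, B and C stood at 2.21%, 1.79% and 2.54% of its mean epithelial signal and Cps1 at 5.07%, 3.12% and 6.69%. The 8 epithelial markers (Vil1, Epcam, Cdh1, Cdh17, Fabp2, Lgals4, Krt20, Cldn7) had medians of 4.14%, 3.83% and 6.64% and ranges of 2.69% to 8.25%, 1.09% to 7.69% and 2.69% to 17.7%. Cps1 was thus within the range of the markers on each array, and Otc was within it on mesenchyme B and below it on mesenchyme A and C. Cps1 had the same order of arrays as Vil1 (3.91%, 2.58%, 5.53%), Epcam (4.01%, 3.04%, 5.30%), Fabp2 and Lgals4. The other markers did not have this order. Cdh17, Krt20 and Cldn7 were equal on mesenchyme A and B, and Cdh1 on A and C, at values rounded to 0.1.

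The other called genes kept more signal in the mesenchyme. Nags stood at 13.2%, 10.0% and 13.2%, Aldh18a1 at 14.9%, 13.9% and 13.0%, Asl at 23.3%, 17.7% and 17.7%, Oat at 29.4%, 23.9% and 27.4%, and Ass1 at 20.1%, 28.5% and 30.5%. Of the 7 genes, 5 lay above the highest marker in mesenchyme A, 5 in mesenchyme B and 2 in mesenchyme C. That marker was Fabp2 on each array, and it read 15.0 on every epithelial array, near the top of the range (15.2). In mesenchyme C Asl (17.66%) lay just under Fabp2 (17.68%), and the next marker was Lgals4 at 7.51%. For Otc and Ass1, whose mesenchymal values were at the level of the bacterial controls, the shares are upper limits. The share of Nags may be an upper limit too, as its mesenchymal values were within the range of single control probe sets. The probe set shared by Ass1 and Gm5424 gave 10.4%, 9.67% and 12.8%. The part that epithelial RNA in the mesenchymal pools has in these signals was not tested.

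**Figure D3:**
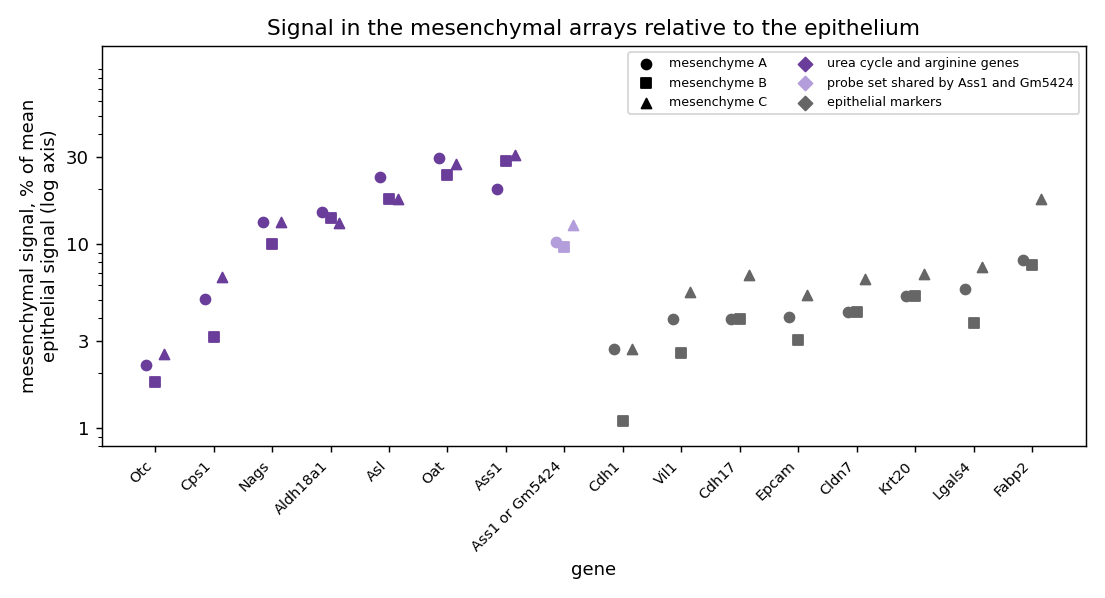
Signal of each mesenchymal array as a percentage of the mean epithelial signal of the same probe set (y axis, linear values on a log axis) for the 7 called genes, the probe set shared by Ass1 and Gm5424, and 8 epithelial markers (x axis). Otc lies at 1.79% to 2.54% and Cps1 at 3.12% to 6.69%, near the markers, and Oat at 23.9% to 29.4%, above them on every array.

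Because the liver lies beside the gut and holds the whole cycle, 14 measured hepatocyte genes were examined. Of these 4 were higher in the epithelium (F9 2.60, Ambp 1.77, Fgb 1.60, Hpd 1.37), where 8.19% of all genes were. None was called higher in the mesenchyme, and the median difference was 0.17. At an unadjusted p under 0.05 in limma 2 were higher in the mesenchyme, both under 2-fold. These were Cyp2e1 (-0.87, adjusted p = 4.55e-03 in limma) and Serpinc1 (-0.80, adjusted p = 6.37e-03 in limma). Albumin (Alb), the main product of hepatocytes, read 8.8, 8.7 and 9.1 in the epithelium against 8.6, 8.5 and 9.3 in the mesenchyme, and fetuin (Ahsg) 8.0, 8.1 and 8.0 against 8.0, 7.8 and 8.3. The mean level of the 14 genes ran from 8.26 to 8.64 in the epithelium and from 7.85 to 8.10 in the mesenchyme. Alb and Ahsg thus overlapped between the tissues, whereas the 4 called genes were higher in the epithelium, as Cps1 and Otc were. The part of liver RNA in the Cps1 and Otc differences was not tested.

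The genes around the pathway were taken from 5 lists of substrates, carriers, uses and regulators, with 59 measured genes. Of these 17 (28.8%) were higher in the epithelium and 9 (15.3%) in the mesenchyme, where 8.19% and 15.9% of all genes were. The share higher in the mesenchyme was thus near that of all genes. Each list is described by its counts, with no test of the list.

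Among 10 measured enzymes of glutamate, proline and aspartate metabolism, 4 were higher in the epithelium, 1 was higher in the mesenchyme and 5 were not called. Prodh, the first enzyme of proline breakdown and so a source of the semialdehyde used by Oat, read 11.3, 11.7 and 11.6 in the epithelium against 9.1, 9.3 and 9.4 in the mesenchyme, a difference of 2.27 ± 0.23. The transaminase genes Gpt (1.47 ± 0.23) and Got1 (1.20 ± 0.23) and Pycr3, a reductase that forms proline (1.20 ± 0.23), were higher in the epithelium as well, the latter pair not under spike-in scaling (0.94 each). Glul, which makes glutamine from glutamate and ammonia, went the other way. It read 7.7, 8.5 and 7.8 in the epithelium against 11.6, 11.2 and 11.3 in the mesenchyme, a difference of -3.37 ± 0.24. The tissues did not overlap for either Prodh or Glul.

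Among 16 carriers, 7 were higher in the epithelium and 2 in the mesenchyme. Slc25a15, the mitochondrial exchanger that brings ornithine to Otc and takes citrulline out, read 12.8, 13.2 and 12.9 in the epithelium against 9.6, 9.3 and 9.2 in the mesenchyme. The arrays did not overlap, and the difference was 3.60 ± 0.23 (12.1-fold). The plasma membrane carriers of cationic amino acids were led by Slc3a1 (5.43 ± 0.25) and Slc7a9 (5.33 ± 0.27), which form the apical cystine and arginine transporter, and by Slc7a7 (3.13 ± 0.24), the light chain of a basolateral exporter of arginine. Slc7a2, an arginine importer of other cell types, was higher in the mesenchyme, at 9.4 on all 3 arrays against 6.8, 7.1 and 6.7 (-2.53 ± 0.23).

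The aspartate-glutamate carriers of the mitochondrion, which deliver the aspartate that Ass1 uses, went opposite ways. Slc25a13 (citrin) was higher in the epithelium, at 10.6, 11.3 and 10.6 against 8.8, 8.6 and 8.8 (2.10 ± 0.24). It falls outside the rule for named genes and was chosen after its values were seen. Slc25a12 (aralar) was higher in the mesenchyme, at 10.1, 9.7 and 9.8 against 7.6, 8.6 and 7.8 (-1.87 ± 0.25). That call ended in the mean of its probe sets (-0.87).

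Among 12 genes of arginine use, 2 were higher in the epithelium and 3 in the mesenchyme. Gatm, which starts creatine synthesis from arginine and glycine, read 12.8, 13.4 and 13.1 in the epithelium against 10.4, 10.2 and 10.1 in the mesenchyme (2.87 ± 0.23). Agmat, annotated as the hydrolase of the arginine derivative agmatine, differed by 2.40 ± 0.24. In the mesenchyme Ddah2, which breaks down methylated arginines that inhibit nitric oxide synthases, was higher by 2.60 ± 0.23 on the log2 scale and the endothelial synthase Nos3 by 1.80 ± 0.23, and Ddah1 differed by -1.03 ± 0.24. The Ddah1 call ended under quantile, loess, median and ribosomal scaling (-0.77, -0.79, -0.73 and -0.72), in the mean of probe sets (-0.96) and when epithelium A (-0.93), epithelium C (-0.93) or mesenchyme A (-0.95) was left out. Markers of vessel endothelium moved with Nos3: 8 of 8 were higher in the mesenchyme, with mean levels of 11.24 to 11.48 there and 7.61 to 8.04 in the epithelium, and their part in the Nos3 difference was not tested.

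Polyamine genes, which act on ornithine and its products, had no call higher in the epithelium among 9 measured. Over all genes 8.19% were called higher in the epithelium, and with 9 genes a count of 0 is near that share. At an unadjusted p under 0.05 in limma 1 was higher there: Sat1, which acetylates polyamines for export or breakdown, at 0.93 ± 0.24, a value that passed 2-fold under median (1.23) and ribosomal (1.25) scaling and without epithelium C (1.12) or mesenchyme A (1.02). Higher in the mesenchyme were Oaz2, an antizyme that restrains ornithine decarboxylase (-2.30 ± 0.23), the spermidine synthase Srm (-1.53 ± 0.23) and the spermine oxidase Smox (-1.33 ± 0.23, not in the mean of its probe sets, -0.87). Odc1, the decarboxylase that competes with Otc for ornithine, read 11.7, 12.5 and 12.0 in the epithelium against 12.4, 12.1 and 12.3 in the mesenchyme. These overlapped, with a difference of -0.20 ± 0.24 (95% interval -0.68 to 0.28). It was named after its values were seen.

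Of 12 regulators, 4 were higher in the epithelium, none was called higher in the mesenchyme and none was so at an unadjusted p under 0.05 in limma. Hnf4a, a nuclear receptor that acts on many liver and gut genes, read 12.6, 13.2 and 13.1 in the epithelium against 9.9, 9.8 and 10.2 in the mesenchyme (3.00 ± 0.23). Cebpa, a leucine zipper factor known to act on urea cycle genes in liver, read 11.5, 12.2 and 11.9 against 9.1, 9.4 and 9.4 (2.57 ± 0.24). Both factors were without overlap between the tissues. Castor2, of a family of arginine sensors, differed by 1.47 ± 0.24, and Sirt3, a mitochondrial deacetylase, by 1.00 ± 0.24. The Sirt3 call ended under spike-in scaling (0.74) and without epithelium B (0.78) or mesenchyme B (0.92). Ppargc1a, a coactivator, and Prodh2, of the list of glutamate and proline enzymes, were under 2-fold in the deposited values (0.87 and 0.83) and passed under quantile, loess, median and ribosomal scaling (1.11 to 1.21 and 1.06 to 1.17), and Ppargc1a also passed without epithelium A (1.03) or epithelium C (1.08).

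**Figure D4:**
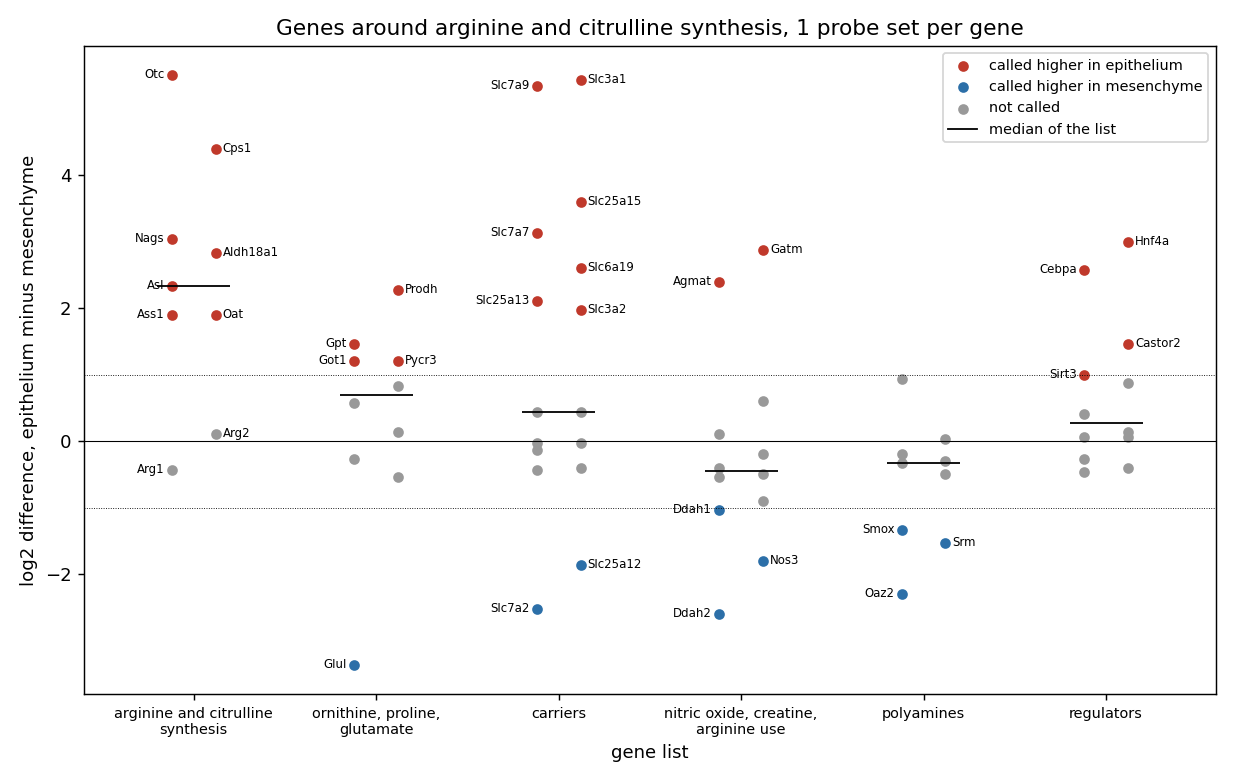
Log2 difference between epithelium and mesenchyme (y axis) of each measured gene in the 9-gene pathway and in 5 surrounding lists (x axis), 1 probe set per gene, coloured by call, with list medians as bars and 2-fold as dotted lines. Otc (5.50), Slc3a1 (5.43) and Slc7a9 (5.33) are highest, Glul (-3.37) is lowest, and polyamine genes have no point called higher in the epithelium. Over all genes, 8.19% were called so.

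Macrophages can hold arginases, and their genes were measured beside Arg1 and Arg2. Of 10 macrophage and granulocyte genes 6 were higher in the mesenchyme, none was called higher in the epithelium (0 at an unadjusted p under 0.05 in limma), and their mean level was 9.55 to 9.89 in the mesenchyme and 8.02 to 8.20 in the epithelium. Mrc1, a receptor of tissue macrophages, read 10.8, 10.7 and 10.7 in the mesenchyme and 7.3, 7.7 and 7.6 in the epithelium. The other 4 genes were not called. Of these Csf1r leaned to the epithelium, at 13.4, 13.8 and 13.5 there against 13.2, 13.1 and 13.2 in the mesenchyme (0.40 ± 0.23). Adgre1 (-0.53), S100a9 (-0.67) and Mpo (-0.20) leaned to the mesenchyme. Arg1 averaged 7.07 in the mesenchyme and 6.63 in the epithelium. The part of macrophages in the Arg1 and Arg2 values was not tested. Of 6 erythroid genes 1 (Alas2) was called higher in the mesenchyme. Over all genes 15.9% were called so, and with 6 genes a count of 1 is near that share.

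The genes whose profiles over the 6 arrays were nearest to each called gene were found by the root mean square difference of log2 values, each gene centred on its own mean. For Cps1 they were Slc51a, a basolateral bile acid carrier (0.11), the lectin gene Lgals4 (0.11) and Aadac (0.12), and for Otc they were Smlr1 (0.12), Clca4b (0.17) and Tm6sf2 (0.17). For Aldh18a1 the nearest was Gatm (0.08), followed by Grb7 and Tmem51 (0.09 each). For Oat they were the somatostatin gene Sst (0.09), Cpt2, of mitochondrial fat import (0.11), and Mgst3 (0.12). Nags was nearest to Lmo7 (0.07), Slc31a1 and Igsf9 (0.08 each), Asl to Sgpp2, Mtm1 and S100a1 (0.07 each) and Ass1 to D130043K22Rik (0.17), Gpa33 (0.18) and Pdx1 (0.21). These distances are a description over 6 arrays in 2 tissues and mostly reflect differences of equal size, at values rounded to 0.1.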

How the data were processed

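Expression was measured on 6 Affymetrix Mouse Genome 430 2.0 arrays. Per the submitters' processing notes, the authors summarised them with RMA (version and step between arrays not given in the sources used here) and deposited log2 values per probe set, which were rounded to 0.1 and ran from 4.6 to 15.2. Platform symbols were checked against RefSeq names of GRCm38.p6 (59 updated). Of 45101 probe sets, 64 controls and, for genes, 932 with several symbols and 9160 with none were left out. A gene was represented by its brightest probe set over the 6 arrays.

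One limma fit (version 3.58.1, R 4.3.3, lmFit and eBayes, 4 residual and 31.7 prior degrees of freedom) covered all probe sets without scaling or covariates, with Benjamini-Hochberg adjustment over genes or probe sets, and was tested on simulated data. Labels do not state separate embryos for each pool, so p-values refer to these pools, which had been chosen by RT-PCR. With 31.7 prior against 4 residual degrees of freedom, the spread behind each p-value came mostly from all probe sets. The smallest p-values thus depend on the moderation. In an alternative fit with the letter as a block, the adjusted p in limma was 1.57e-06 for Otc and 1.64e-04 for Oat and Ass1. Same-lettered pools were not taken as pairs (deviations of same-lettered arrays correlated at -0.31, -0.15 and 0.12).

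The 9 genes and the lists were chosen with earlier results of these data known. Named were all 9 genes and up to 4 called genes per list and direction. Beyond this rule, Slc25a13 was named, as were Odc1, Sat1, Ppargc1a and Prodh2, none of which was called in the deposited values. Alternatives were other scalings, filters, moderation, thresholds, probe set choices, a block on the letter and arrays left out. Some genes of these lists are not reported here.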

Additional observations from a re-analysis of the deposited data

How the results depend on the processing

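Of 186 values of single genes under 21 alternatives, 183 kept their direction and their side of the threshold. Many of these could not change direction. Other moderation, thresholds, the filter on dim probe sets and the block on the letter leave each difference as it was. Choices of probe set leave it so for genes with 1 probe set. The exceptions were Arg2, which turned to -0.16 under spike-in scaling (0.05 when mesenchyme B was left out as well, an alternative added after the data were seen), and Oat and Ass1 (1.90 each), which do not reach a 4-fold threshold. The counts of 7 and 0 genes stood under every alternative except the 4-fold threshold (5 and 0) and the filter on dim probe sets (6 and 0), where Ass1, Arg1 and Arg2 had no value. Leaving out any 1 array gave 7 and 0. At the 4-fold threshold the surrounding lists gave 11 genes higher in the epithelium and 4 in the mesenchyme. The fit with the letter as a replicate block gave 7 and 0 for the 9 genes and 17 and 9 for the lists, as without it. Signal near background limits Arg1, Arg2, the single-gene probe set of Ass1 and the mesenchymal values of Otc, and may limit those of Nags.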
